A study of Arabidopsis thaliana with 22 samples.

Results

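UDP-glycosyltransferases (UGTs) join a sugar from an activated nucleotide sugar to a small molecule, and 47 genes of this family were followed in Arabidopsis roots. The members are all probe sets whose platform annotation lists exactly 1 gene with a symbol starting with UGT, apart from UGT74B1, together with the probe set of the gene AT2G22590. That gave 46 UGT symbols and AT2G22590, each on 1 probe set, of 13356 genes that have a probe set of their own in the annotation. No level of expression was required to be a member. A mean signal at or above a filter of about 27 was required for testing, and 25 members met it, while 22 did not. None of the 25 would have missed this filter without the arrays of any 1 time. The study measured roots of Arabidopsis thaliana Col-0 plants that were 10 days old, a wild-type strain, on 22 arrays with 1 RNA sample each. Plants had been moved to MGRL agar medium with 0 uM sulfate or with 1500 uM sulfate, and roots were taken 2, 4, 8, 12 and 24 h later. A further group, labelled 0 h and 1500, had no treatment. These 11 groups of medium and time have 2 arrays each, marked A and B. Whether A and B come from separate plants or cultures is not stated, and the p-values therefore speak of the spread among these samples alone, possibly a technical one.

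Most plant UGTs use UDP-glucose, and each enzyme accepts a limited range of molecules, among them hormones, phenylpropanoids, flavonoids and foreign compounds. Glycosylation makes these molecules more soluble, changes their activity and allows their storage in the vacuole. In roots the family is known for storage forms of auxin, cytokinin and abscisic acid, for coniferin and syringin, the glucosides of the lignin precursors, and for removing toxic compounds. A further UGT acts in the synthesis of glucosinolates, which hold sulfur.

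All values are MAS5 signals as deposited, on a linear scale that the authors had already adjusted between arrays. Differences are on the scale log2(signal + 11), where dim probe sets show less than their true change, and folds are the powers of these differences. The median signal of an array lay between 42.5 and 46.2, and the arrays of a group correlated with r between 0.977 and 0.987 over probe sets. The number of arrays limits the precision: the median standard error (SE) of a log2 difference was 0.149 between transferred and untreated roots and 0.172 between media at 1 time. A member is said to have risen or fallen where limma gave an adjusted p (Benjamini-Hochberg over 13648 probe sets) under 0.05. Unless stated otherwise, the fit leaves out the letters A and B of the arrays. In whole roots, fewer cells of a type and less RNA per cell cannot be told apart. Time after transfer, time of day and plant age move together here and cannot be told apart.

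The probe set signals of the family spread widely. UGT72E2, which glucosylates the monolignols coniferyl and sinapyl alcohol, had a mean of 609.6 over all arrays. UGT72E1, its relative acting on the corresponding aldehydes, had a mean of 351, and UGT71C1, which takes phenolic compounds, one of 337. Among the hormone-linked members, UGT74D1, which conjugates auxin, averaged 219, and UGT76B1, which acts on isoleucic acid, salicylic acid and N-hydroxypipecolic acid, also averaged 219. The 22 members under the filter had means between 0.515 and 26.1. They include UGT76E1, UGT76E2, UGT76E11 and UGT76E12, the members of the clade linked to hydroxylated jasmonates, and the auxin-linked UGT84B1 and UGT84B2. UGT71B6 and UGT71B8, of the clade acting on abscisic acid, and UGT74F1, which acts on salicylic acid, were below it as well. Signals of different probe sets also depend on their probes, so these means do not rank the transcripts.

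**Figure D1:**
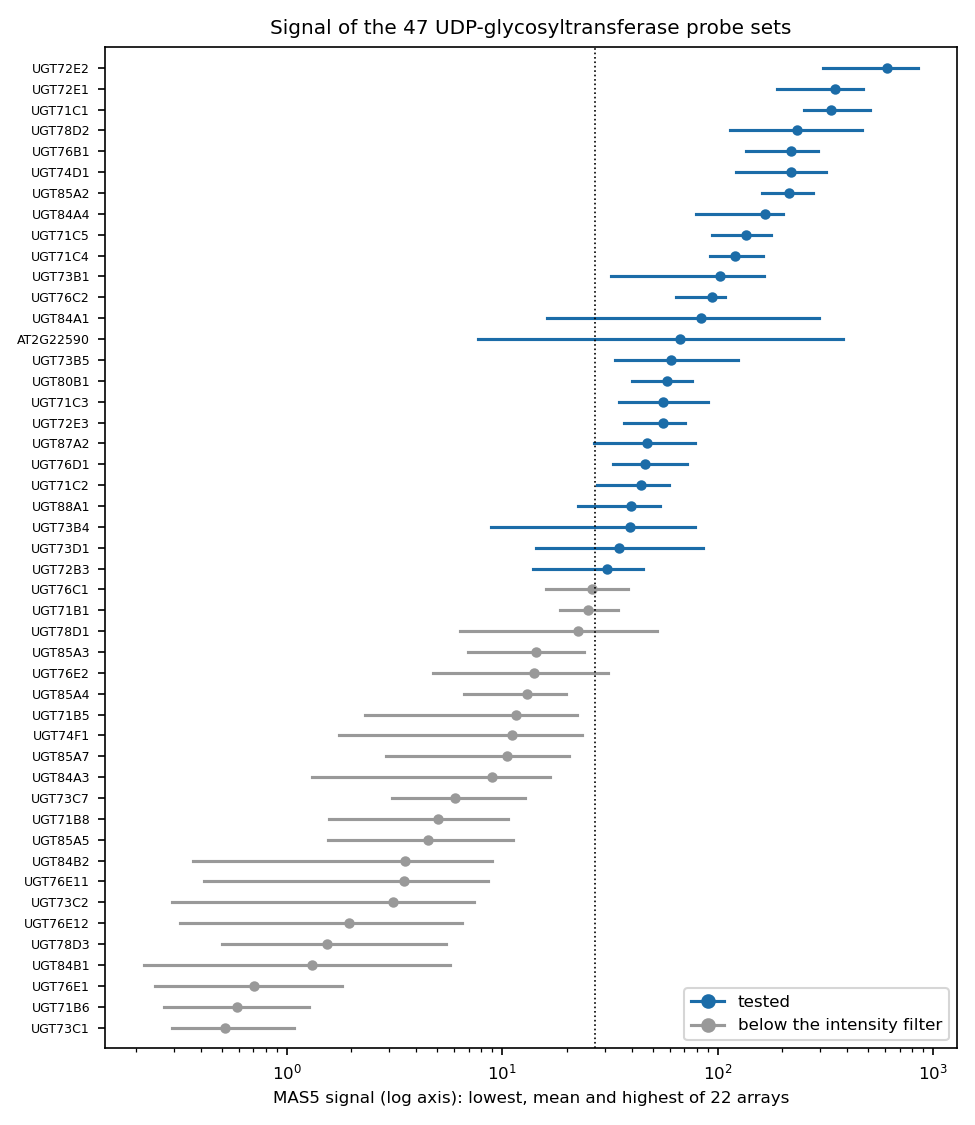
MAS5 signal (log axis) of the 47 probe sets, as the lowest, the mean and the highest of 22 arrays, sorted by mean. Blue marks the 25 tested members, grey the 22 below the filter, and the dotted line the filter; the bars of UGT84A1 and AT2G22590 are the widest among the tested members.

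After transfer more tested members rose than fell at 2, 4, 8 and 12 h, with both media averaged. At 2 h 7 of the 25 tested members rose (28%), where 3.76% of all tested probe sets did, and 1 fell (4%), where 2.01% did. At 4 h 6 rose (24%) against 2.92% of all, and 1 fell against 1.25%. At 8 h 5 rose (20%) against 3.52%, and 1 fell (4%) against 3.69%. At 12 h 7 rose (28%) against 5.77%, and 1 fell (4%) against 6.87%. These 4 comparisons share the same 2 untreated arrays. The median log2 difference of the tested members was 0.21, 0.28, 0.27 and 0.25 at these times, beside -0.03, -0.02, 0 and 0.01 for all tested probe sets. At 24 h 0 members were called by limma, where 0.33% of probe sets rose and 0.147% fell; 7 members had an unadjusted p under 0.05. With the letter A or B of the arrays as a factor in the fit 3 members were called at 24 h (12%), AT2G22590, UGT72E1 and UGT84A4, all higher, where 2.51% of all tested probe sets were called in either direction. In all, 12 members (48%) were called against untreated roots at 1 or more times, where 17.5% of all tested probe sets were. AT2G22590, added to the members by its locus, is among these 12 and among the rises at 8 and 12 h. The members were chosen with earlier results of these data known, which limits what the shares can show.

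Leaving out single arrays changed these counts. Without the untreated array A, the members called at 2, 4, 8 and 12 h numbered 4, 1, 1 and 3. Without the untreated array B, 4 members were called at 4 h. Leaving out the sulfate-free array A of 8 h left 3 calls at 8 h, and leaving out the sulfate-free array A or B or the replete array A of 12 h left 5 at 12 h. With the letter as a factor 11, 10, 11 and 12 members were called at 2, 4, 8 and 12 h in place of 8, 7, 6 and 8, and the shares of all tested probe sets called were then 10.6%, 8.09%, 14.9% and 23.9%. In each comparison the members called without this factor were called with it as well. It called 19 members (76%) against untreated roots at 1 or more times, beside 31.9% of all tested probe sets. The 7 members it added were UGT71C2, UGT72E1, UGT72E3, UGT73D1, UGT76C2, UGT76D1 and UGT88A1.

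Comparisons among the transferred arrays do not use untreated roots. From 2 h to 12 h 5 members rose and 8 fell, where 9.58% and 9.72% of all tested probe sets did. Omitting array A of sulfate-free roots at 12 h left 8 calls here. From 12 h to 24 h 1 rose and 3 fell, beside 3.9% and 2.78%. From 2 h to 24 h 2 rose and 7 fell, beside 6.17% and 5.85%. Without the sulfate-free array B of 2 h, the replete array B of 2 h or the sulfate-free array A of 24 h, 5 members were called from 2 h to 24 h. With a block for arrays sharing time and letter (the time-letter block), 9 members were called from 2 h to 12 h (36%), 3 from 12 h to 24 h (12%) and 6 from 2 h to 24 h (24%). The shares of all tested probe sets called in that fit were 12.7%, 3.33% and 6.37%. Over the 8 comparisons across time 19 of the 25 tested members (76%) were called at least once in the fit without a block, where 30.2% of all tested probe sets were. UGT71C2, UGT72B3, UGT76B1, UGT76C2, UGT80B1 and UGT85A2 were not called in it. With the letter as a factor 21 members (84%) were called at least once, beside 47.2% of all tested probe sets, UGT71C2 and UGT76C2 among them. With the time-letter block 15 (60%) were, beside 21.1%.

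**Figure D2:**
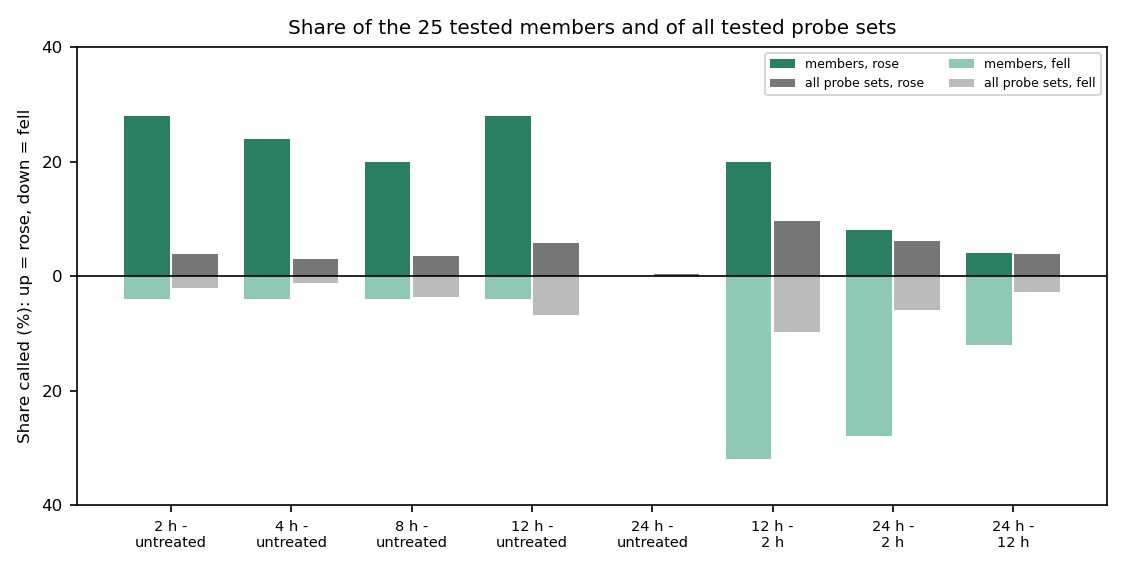
Share (%) of the 25 tested members (green) and of the 13648 tested probe sets (grey) that rose (up) or fell (down) in 8 comparisons across time, both media averaged. The green bars are taller than the grey ones in both directions, some by little, apart from 2 comparisons with untreated roots. Falls at 12 h are fewer among members (4% against 6.87%), and no green bar is seen at 24 h.

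The hydroxycinnamate group forms glucose esters of sinapic acid and related acids, which serve as donors for further ester formation. Of 4 listed genes 3 are members, UGT84A1, UGT84A3 and UGT84A4, which lie next to each other on chromosome 4 in the RefSeq annotation (TAIR10.1). Of the 2 tested, UGT84A4 rose at 2, 4, 8 and 12 h and UGT84A1 at 8 and 12 h. UGT84A1 read 18.0 and 40.3 in untreated roots, 16.1 to 45.0 on the 4 arrays of 2 h and 18.3 to 42.3 on those of 4 h. At 8 h its signals were 79.0 and 70.8 without sulfate and 65.4 and 91.8 on replete medium. At 12 h they were 285 and 295 without sulfate and 232 and 206 on replete medium. No other array reached the lowest of these 4 values, and both media were high. At 24 h the signals were back at 38.7 and 77.5 without sulfate and 35.5 and 74.1 on replete medium, which overlaps with the range of 8 h and with the higher untreated array.

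For UGT84A1 the mean rose from 29.1 in untreated roots to 255 at 12 h, by log2 2.77 (SE 0.30, limma adjusted p = 1.42e-05) or 6.83-fold. From 2 h to 12 h it rose by 2.79 (SE 0.25, adjusted p = 6.47e-07), and from 12 h to 24 h it fell by 2.03 (SE 0.25, adjusted p = 5.44e-05). The 12 h difference from untreated roots was 2.36 without the untreated array A. The green tissue markers LHCB4.1 and RCA had their lowest summed signal at 12 h, 124 to 164, against 371 to 437 in untreated roots, and their part in the 12 h results was not tested. The rise at 8 h, 1.18 (SE 0.30, adjusted p = 0.0249), was 0.77 and did not pass without that array, nor did it pass without the sulfate-free array A or the replete array B of 8 h. The difference from 2 h to 24 h was 0.76 (SE 0.25) with adjusted p = 0.0554, and 0.00302 with the letter as a factor.

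UGT84A4, of the same gene cluster as UGT84A1, was already higher at 2 h. Its signals were 103 and 79.8 in untreated roots, and every transferred array, from 131 to 201, was above both. The 4 arrays of 2 h read 179, 184, 183 and 165, and those of 12 h 184, 183, 197 and 167. The log2 difference from untreated roots was 0.89 at 2 h (SE 0.14, adjusted p = 8.16e-04), 0.84 at 4 h (adjusted p = 0.00203), 0.90 at 8 h (adjusted p = 7.49e-04) and 0.93 at 12 h (adjusted p = 4.65e-04). At 4 h the call did not hold without the untreated array B (adjusted p = 0.0612). At 24 h the difference was 0.66 (SE 0.14), with adjusted p = 0.0538, and 0.012 with the letter as a factor. The third neighbour, UGT84A3, lay between 1.31 and 16.6 on all arrays and was not tested.

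AT2G22590, counted with the family by its locus and without a symbol in the tables used here, had the widest relative range of all tested members, with its highest group mean 18.2 times its lowest. Its untreated arrays read 7.76 and 26.3, and the arrays of 2 and 4 h lay between 11.7 and 45.5. At 8 h the signals were 65.6 and 69.9 without sulfate and 37.0 and 47.04 on replete medium, and at 12 h 237 and 381 without sulfate and 116 and 139.6 on replete medium. The 4 arrays of 12 h were above every other array, and within them both sulfate-free arrays were above both replete ones. At 24 h the signals were 44.0 and 44.7 without sulfate and 25.1 and 30.5 on replete medium.

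For AT2G22590 the mean rose from 17.0 in untreated roots to 218 at 12 h, by log2 2.97 (SE 0.35, adjusted p = 2.70e-05) or 7.85-fold. This difference was 2.48 without the untreated array A and 1.91 with 50 in place of 11 added to the signal. Between 2 h and 12 h it was also 2.48 (SE 0.28, adjusted p = 1.09e-05), and from 12 h to 24 h the level fell by 2.16 (SE 0.28, adjusted p = 1.11e-04). At 8 h the rise was 1.29 (SE 0.35, adjusted p = 0.0312), which fell short of the threshold without the untreated array A, where it was 0.79, with no filter on dim probe sets, and without any 1 of the 4 arrays of 8 h. In every group array A was below array B.

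**Figure D3:**
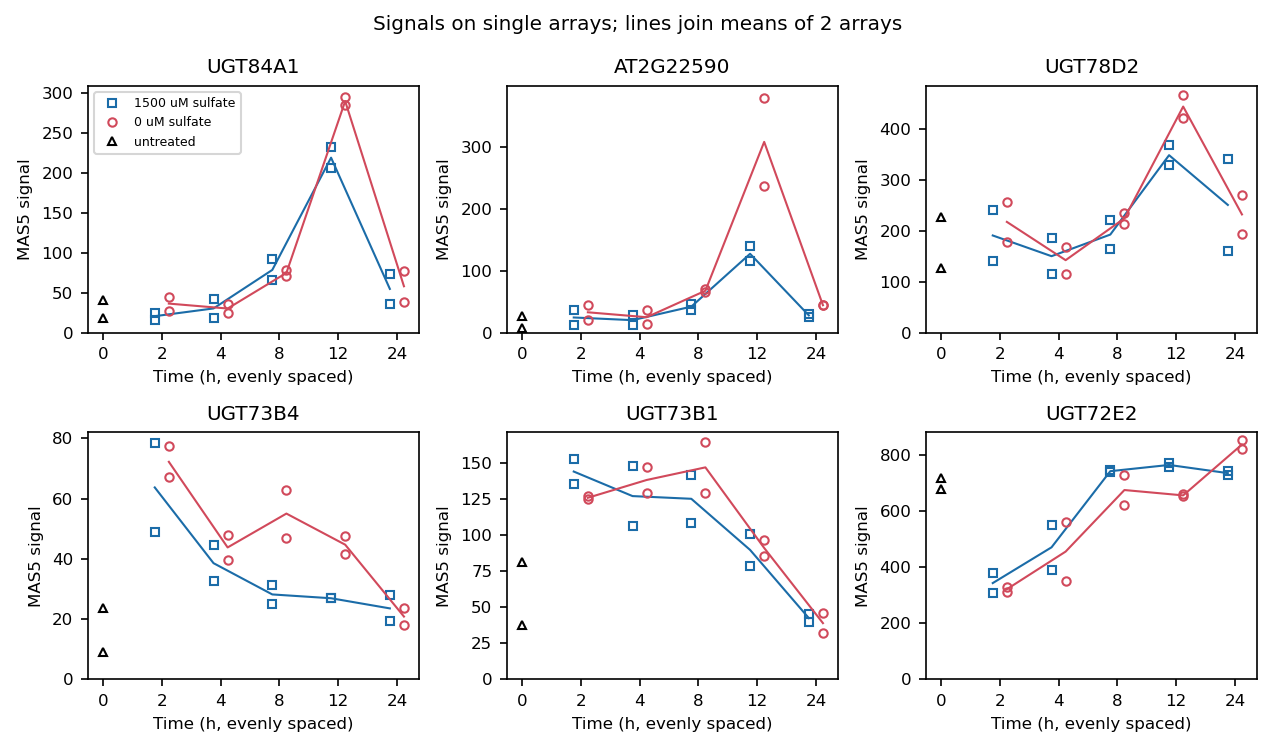
MAS5 signals of 6 members on single arrays over time (untreated roots at 0 h, triangles; sulfate-free medium, red circles; replete medium, blue squares), with lines joining means of 2 arrays and times evenly spaced. UGT84A1 and AT2G22590 reach 206 to 295 and 116 to 381 at 12 h, while UGT73B4 is highest at 2 h and UGT72E2 is lowest there.

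Of 9 listed genes of the flavonoid group 3 were matched to members by name, of which 1 was bright enough to test. AT2G22590, without a symbol, was matched to no listed group, so whether it belongs to this list was not settled. UGT78D2, which puts glucose on the 3 position of flavonols and anthocyanidins, read 127 and 226 in untreated roots and 466, 421, 368 and 329 at 12 h. The 12 h arrays were above all other arrays except the replete array B of 24 h, at 340.5. The mean rose from 177 to 396, by log2 1.16 (SE 0.29, adjusted p = 0.0172), which was 0.77 and did not pass without the untreated array A. From 2 h to 12 h it rose by 0.94 (SE 0.24, adjusted p = 0.0107), a call that did not hold without the sulfate-free or the replete array A of 2 h. UGT78D1, the flavonol 3-O-rhamnosyltransferase, was below the filter, with 6.39 and 21.3 in untreated roots and 47.2, 52.5, 27.0 and 20.9 at 12 h. UGT78D3, which transfers arabinose to flavonols, averaged 1.54.

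The UGT73B clade responds to pathogens and oxidative stress. Of its 5 listed genes 3 are members here, and all 3 rose early. The other listed genes were not followed, which does not mean that they are absent from the array. UGT73B4, which can glucosylate breakdown products of trinitrotoluene, read 8.87 and 23.8 in untreated roots and 67.1, 77.4, 48.9 and 78.5 at 2 h. Its mean went from 16.3 to 68.0, by log2 1.57 (SE 0.21, adjusted p = 1.59e-04) or 2.97-fold. This difference was 1.17 without the untreated array A, and 0.83 with 50 in place of 11 added to the signal, and it passed in both. At 24 h it read 17.9 to 27.8, below all 2 h arrays. The fall from 2 h to 24 h was -1.24 (SE 0.17, adjusted p = 1.27e-04). At 4, 8 and 12 h UGT73B4 stood 0.98, 0.94 and 0.80 above untreated roots (adjusted p = 0.0111, 0.0107 and 0.0202). Without the untreated array A these differences were 0.58, 0.54 and 0.40 and did not pass, and without the untreated array B that of 12 h was 1.21. The 12 h call was also lost without the sulfate-free array B of 12 h.

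UGT73B1, which takes flavonoids in vitro, was higher than in untreated roots at 2, 4 and 8 h. Untreated roots read 37.2 and 81.0, and the 2 h arrays read 125, 127, 135 and 152, without overlap. The 8 h arrays lay between 109 and 164, those of 12 h between 78.3 and 101, and those of 24 h between 32.1 and 45.5. The log2 difference from untreated roots was 1.13 at 2 h (SE 0.21, adjusted p = 0.00289), 1.1 at 4 h (adjusted p = 0.00494) and 1.13 at 8 h (adjusted p = 0.00285). Without the untreated array A these were 0.66, 0.63 and 0.66, and none passed. From 2 h to 24 h UGT73B1 fell by 1.51 (SE 0.17, adjusted p = 1.94e-05), and from 12 h to 24 h by 0.98 (SE 0.17, adjusted p = 0.00177).

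UGT73B5, the neighbour of UGT73B4 on chromosome 2, takes part in the response to bacterial infection. It read 36.0 and 33.8 in untreated roots, 115, 67.1, 85.8 and 68.8 at 2 h, and 124, 72.1, 95.3 and 62.9 at 4 h, with all 8 transferred arrays above both untreated ones. The log2 difference was 1.02 at 2 h (SE 0.21, adjusted p = 0.00565) and 1.08 at 4 h (SE 0.21, adjusted p = 0.0052). Neither call held without the untreated array A or without the untreated array B. From 2 h to 24 h it fell by 0.92 (SE 0.17, adjusted p = 0.0019), to signals between 33.5 and 50.1.

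All 3 tested genes of the clade also fell from 2 h to 12 h. The log2 difference was -0.53 for UGT73B1 (SE 0.17, adjusted p = 0.0405, and 0.0884 with the time-letter block), -0.77 for UGT73B4 (SE 0.17, adjusted p = 0.00482) and -0.75 for UGT73B5 (SE 0.17, adjusted p = 0.00525). Among them UGT73B1 lost this call without any 1 of the 4 arrays of 2 h, without either sulfate-free array of 12 h, or without the replete array B of 12 h, and also with 1 in place of 11 added to the signal or with no filter.

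Of the monolignol and phenolic group 5 of 6 listed genes were tested, of which 1 fell at each of 2, 4, 8 and 12 h against untreated roots and none was called higher in the fit without a block. With the letter as a factor UGT72E3 was also called lower at 2 h (log2 -0.47, adjusted p = 0.043) and UGT71C1 at 4 h (log2 -0.55, adjusted p = 0.0146). That fit called UGT72E1 higher at 4, 8 and 24 h, by 0.54, 0.57 and 0.54 (adjusted p = 0.0119, 0.00579 and 0.0315). UGT72E2 read 718 and 680.3 in untreated roots and 331, 312, 379 and 307 at 2 h. Its arrays lay between 351 and 560.4 at 4 h, between 622 and 746 at 8 h and between 729 and 854 at 24 h, so the 2 h arrays were below those of untreated roots and of 8, 12 and 24 h. The mean fell from 699 to 332 at 2 h, by log2 -1.05 (SE 0.16, adjusted p = 3.74e-04), and was lower by -0.61 at 4 h (SE 0.16, adjusted p = 0.0327). The 4 h call was lost without either untreated array, without the sulfate-free or replete array A of 4 h, and with no filter. From 2 h the level rose by 1.07 to 12 h (SE 0.13, adjusted p = 1.70e-05) and by 1.22 to 24 h (SE 0.13, adjusted p = 7.16e-06).

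UGT72E1 and UGT72E3 also rose among the transferred arrays. UGT72E1 read 306, 204, 339.9 and 188 at 2 h and 419, 361, 442 and 381 at 24 h, without overlap. It rose from 2 h to 24 h by 0.64 (SE 0.17, adjusted p = 0.0186), and lost this call without array B of either medium at 2 h or array A of either medium at 24 h. UGT72E3, a sinapyl alcohol glucosyltransferase, read 48.8, 45.8, 48.5 and 36.9 at 2 h and 61.7, 63.3, 55.7 and 59.9 at 12 h. Its rise of 0.35 from 2 h to 12 h (SE 0.12, adjusted p = 0.0482) had adjusted p = 0.114 with the time-letter block and was lost in 19 of 28 alternative settings, among them the omission of any 1 array of 12 h.

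UGT71C1 read 511 and 414 in untreated roots and was lower on all 4 arrays of 8 h, at 272, 317, 280.5 and 339, and of 12 h, at 255, 335, 269.5 and 336. The log2 difference was -0.59 at 8 h (SE 0.17, adjusted p = 0.0408) and -0.61 at 12 h (SE 0.17, adjusted p = 0.0251). Both calls were lost without the untreated array A. The 8 h call was also lost without the untreated array B, either sulfate-free array or the replete array A of 8 h, and with quantile normalization or with no filter. The 12 h call was also lost without array A of either medium at 12 h. UGT71C4, the last of the group, fell from 2 h to 24 h by 0.41 (SE 0.12, adjusted p = 0.0367, and 0.152 with the time-letter block). Its 2 h arrays, from 121 to 162, lay above those of 24 h, from 97.9 to 109, and the call was lost in 8 of 28 alternative settings, among them the omission of any 1 array of 24 h.

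Of the tested hormone-linked members (UGT74D1, UGT76C2, UGT71C5, UGT76B1 and UGT76D1), UGT74D1 alone was called against untreated roots in the fit without a block, at 2 h. This auxin glucosyltransferase read 122 and 207 in untreated roots and 271, 315, 263 and 319 at 2 h, above both. The mean went from 165 to 292, by log2 0.83 (SE 0.16, adjusted p = 0.00477), which was 0.47 and did not pass without the untreated array A. With the letter as a factor it was also called higher at 4 h, by 0.44 (adjusted p = 0.0272), and at 12 h, by 0.35 (adjusted p = 0.0407). It fell from 2 h to 12 h by 0.48 (SE 0.13, adjusted p = 0.019) and to 24 h by 0.54 (SE 0.13, adjusted p = 0.0144). The latter call was lost without array B of either medium at 2 h or array A of either medium at 24 h. The former was lost without array B of either medium at 2 h, either sulfate-free array of 12 h or the replete array A of 12 h.

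UGT71C5, which glucosylates abscisic acid, read 143, 164, 147 and 142 at 2 h and 94.1, 131, 104 and 126 at 12 h, all below the 2 h arrays. It fell by 0.37 to 12 h (SE 0.11, adjusted p = 0.0283) and by 0.36 to 24 h (SE 0.11, adjusted p = 0.0451), with adjusted p = 0.0846 and 0.133 under the time-letter block. The 12 h call was lost without array B of either medium or the replete array A of 2 h, or without array A of either medium at 12 h, and the 24 h call in 13 of 28 alternative settings. UGT76D1, which acts on dihydroxybenzoic acids formed from salicylic acid, read 58.6, 72.5, 51.6 and 58.5 at 2 h and 38.9, 32.8, 37.9 and 40.3 at 12 h. It fell by 0.55 (SE 0.11, adjusted p = 0.00145), and this call held in all 28 alternative settings. With the letter as a factor UGT76D1 was called higher than in untreated roots at 2 h, by 0.41 (adjusted p = 0.0491). The cytokinin N-glucosyltransferase UGT76C2 was called in no comparison without a block. With the letter as a factor it was called higher at 8 h, by 0.36 (adjusted p = 0.0413), and at 12 h, by 0.34 (adjusted p = 0.0374). UGT76B1 and the sterol glucosyltransferase UGT80B1 were not called in any comparison of the fits without a block, with the letter as a factor or with the time-letter block.

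Among the other tested members, UGT71C3 and UGT87A2 rose at 2, 4 and 12 h. UGT71C3, which glucosylates methyl salicylate, read 36.9 and 34.9 in untreated roots and 67.8, 90.1, 69.6 and 61.2 at 2 h, and each transferred array was above both untreated ones. Its log2 difference was 0.82 at 2 h (SE 0.14, adjusted p = 0.00155), 0.56 at 4 h (adjusted p = 0.0295) and 0.45 at 12 h (adjusted p = 0.0476). The time-letter block put the 4 h value at adjusted p = 0.0715 and that of 12 h at adjusted p = 0.0886. The 4 h call was lost without either untreated array, either sulfate-free array or the replete array A of 4 h, and with no filter, and the 12 h call in 18 of 28 alternative settings.

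UGT87A2, known for an effect on flowering time, read 26.8 and 32.7 in untreated roots and 56.7, 55.5, 54.4 and 51.4 at 2 h, without overlap. The log2 difference was 0.69 at 2 h (SE 0.12, adjusted p = 0.00224), 0.79 at 4 h (adjusted p = 0.00113) and 0.41 at 12 h (adjusted p = 0.04, and 0.07 with the time-letter block). Without the untreated array A none of the 3 passed. The 12 h call was lost in 9 of 28 alternative settings, among them a pseudocount of 50, no filter, quantile normalization, and the omission of either untreated array, either sulfate-free array or the replete array A of 12 h.

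UGT73D1 and UGT71C3 fell from 2 h to 12 h, and UGT88A1 rose from 12 h to 24 h. UGT73D1 read 85.5, 40.6, 48.7 and 51.1 at 2 h and 36.2, 14.3, 29.0 and 19.8 at 12 h. It fell by 0.91 to 12 h (SE 0.22, adjusted p = 0.00818), a call lost on leaving out array A of sulfate-free roots at 2 h or array B of those at 12 h. To 24 h it fell by 0.71 (SE 0.22, adjusted p = 0.0481, and 0.131 with the time-letter block), lost in 19 of 28 settings. The fall of UGT71C3 to 12 h was -0.37 (SE 0.12, adjusted p = 0.0334, and 0.12 with that block), lost in 7 of 28 settings. The rise of UGT88A1, which takes flavonols in vitro, was 0.47 (SE 0.13, adjusted p = 0.0456, and 0.16 with that block), lost in 19 of 28 settings.

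**Figure D4:**
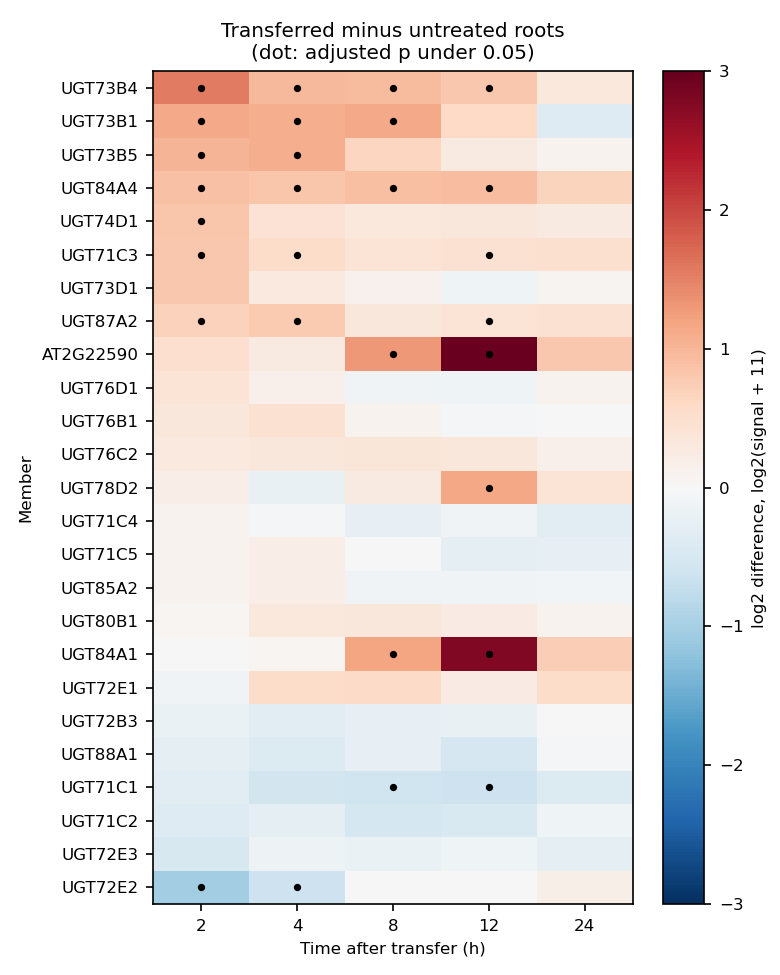
Log2 difference, on the scale log2(signal + 11), between transferred roots (mean of both media) and untreated roots at 5 times for the 25 tested members, sorted by the 2 h value. A dot marks an adjusted p under 0.05. The 3 UGT73B genes are the reddest members in the 2 h and 4 h columns, and UGT73B1 is as high at 8 h (1.13) as at 2 h. UGT84A1 and AT2G22590 are the reddest members at 12 h, with 2.77 and 2.97.

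Of the 22 members below the filter, 1 (4.55%) was called when all 22746 probe sets were tested, where 17.6% of these probe sets were called in at least 1 comparison. That share includes the 13648 probe sets that pass the filter. The share among probe sets below the filter was not computed, so the 2 shares are not of like sets. UGT76E2, of the clade linked to hydroxylated jasmonates, read 15.2 and 19.1 in untreated roots and 5.19, 7.61, 8.08 and 4.79 at 12 h. The 12 h arrays were below every other array of the gene. The log2 difference from untreated roots was -0.69 (SE 0.15, adjusted p = 0.0126) at 12 h. Between 2 h and 12 h it was -0.83 (SE 0.12, adjusted p = 4.22e-04), and from 12 h to 24 h it was 0.49 (SE 0.12, adjusted p = 0.0396). These comparisons called 6.18%, 11.1% and 3.39% of the 22746 probe sets. These signals are in the dim range of the array.

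No member passed the test between media in the fit without a block. Between sulfate-free and replete roots limma called 0 of the 25 members at 2, 4, 8, 12 and 24 h and in the mean of the 5 differences. The number with an unadjusted p under 0.05 was 0, 1, 2, 4 and 0 at the 5 times and 4 for the mean. Over all tested probe sets 0% rose and 0% fell without sulfate at 2 h, and again 0% and 0% at 4 h. At 8 h 0.00733% rose and 0% fell, at 12 h 0.0953% and 0.0293%, and at 24 h 0.161% and 0.198%. For the mean difference these shares were 0.242% and 0.234%. The F-test of equal differences at the 5 times called 0 members, with 0 at an unadjusted p under 0.05, where it called 0.0806% of all probe sets. With the letter as a factor 1 member (4%) was called at 12 h, where 0.322% of all tested probe sets were, and 1 (4%) in the mean difference, where 1.05% were. With the time-letter block 2 (8%) were called in the mean difference, beside 1.66% of all tested probe sets.

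AT2G22590 was the member called in both of these fits. It was higher without sulfate in 10 of 10 pairs of arrays of the same time and letter. At 12 h its mean was 309 without sulfate and 128 on replete medium, which differ by log2 1.17 (SE 0.40, 95% interval 0.33 to 2.02). Its adjusted p of 0.805 in the unblocked fit became 0.0404 with the letter factor and 0.0716 with the time-letter block. The mean difference over the 5 times was 0.56 (SE 0.18, 95% interval 0.18 to 0.94), with adjusted p = 0.375, 0.00865 and 0.0245 in the same order. At 12 h PYK10, an abundant root beta-glucosidase, read 2041 and 3105 without sulfate and 3972 and 4016 on replete medium, so the media did not overlap for it either. PYK10 was higher without sulfate at 4 h, with 3585 and 4072 against 3166 and 3201. The green tissue markers LHCB4.1 and RCA summed to 124 and 145 without sulfate and 150.3 and 164 on replete medium at 12 h, also without overlap. Their sums at 8 h were 181 and 203.5 without sulfate and 203.7 and 244 on replete medium. Those at 24 h were 271 and 319.5 without sulfate and 333 and 354 on replete medium. At 2 and 4 h the sums of the media overlapped. The part of these markers in the difference between media was not tested.

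UGT87A2 was higher without sulfate in 10 of 10 such pairs as well. At 8 h its arrays read 52.8 and 45.98 without sulfate and 33.4 and 33.7 on replete medium, and at 12 h 50.1 and 50.9 against 41.1 and 32.1, without overlap at either time. The mean difference over the times was 0.27 (SE 0.06, 95% interval 0.13 to 0.40), where the unblocked adjusted p was 0.106, that with the letter factor 0.0519 and that with the time-letter block 0.0115. Without the sulfate-free array B of 4 h 1 member was called in the mean difference without a block. UGT73B4 had a mean difference of 0.30 (SE 0.11, adjusted p = 0.5), and at 8 h it read 47.04 and 63.0 without sulfate and 25.1 and 31.2 on replete medium. UGT73B5 was higher without sulfate in 9 of 10 pairs, with a mean difference of 0.26 (SE 0.11, adjusted p = 0.671). The pairs were counted after the values had been seen.

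For UGT84A1 the difference between media was 0.39 at 12 h (95% interval -0.35 to 1.13) and 0.21 in the mean over the times (adjusted p = 0.999). Over all 25 members the mean difference over the times ran from -0.27 to 0.56, with a median of 0.02 beside 0.01 for all tested probe sets. A p that misses the threshold does not show that the media act alike, and the intervals give the differences that remain possible.

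**Figure D5:**
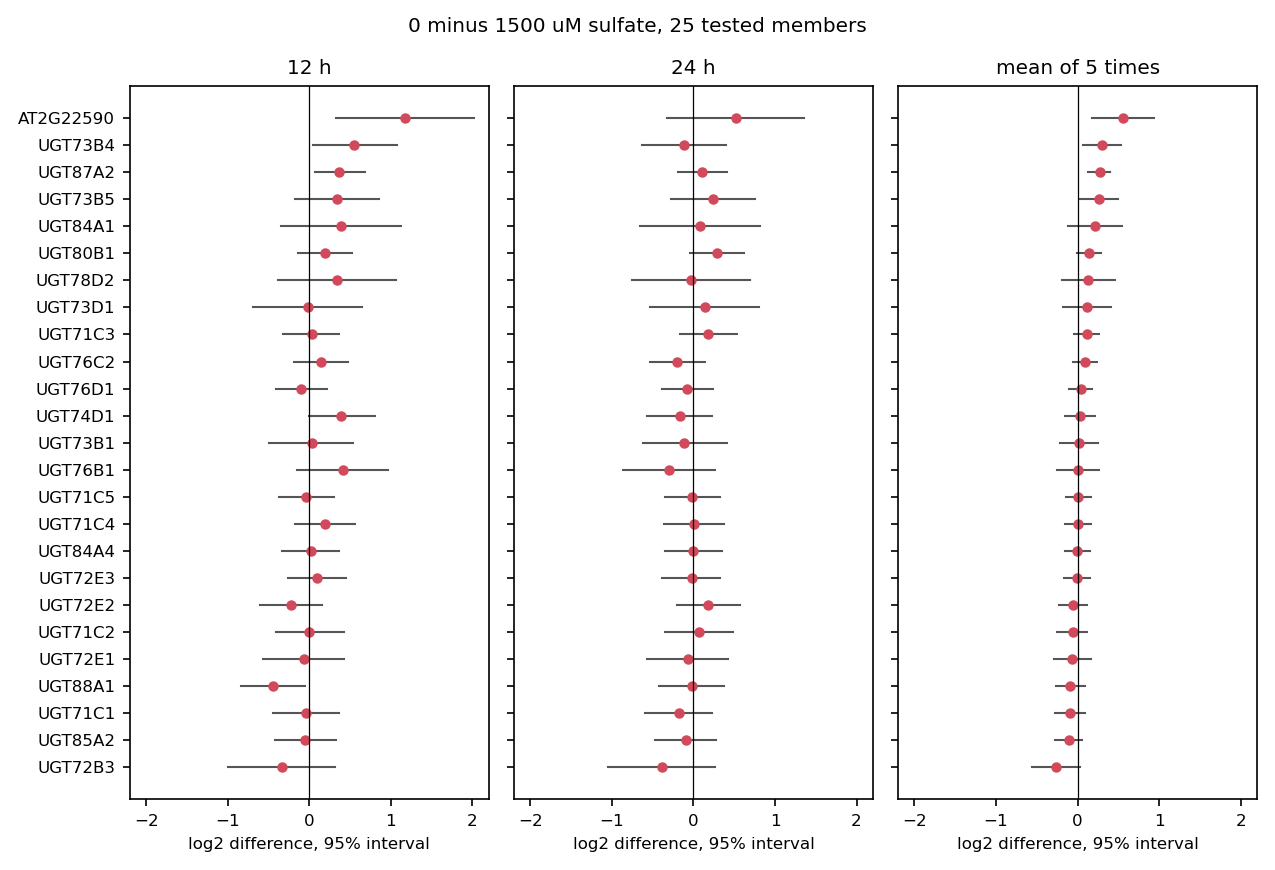
Log2 difference, on the scale log2(signal + 11), between sulfate-free and replete roots for the 25 tested members at 12 h, at 24 h and in the mean of the 5 times, with 95% intervals from limma. AT2G22590 lies farthest right at 12 h (1.17) and in the mean (0.56), and most other intervals include 0.

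Genes that supply the substrates of the family were little covered by named probe sets. Of 21 listed genes of the general phenylpropanoid pathway 3 were tested. CCR2, a cinnamoyl-CoA reductase, rose from 65.6 to 114 at 2 h (log2 0.71, SE 0.19, adjusted p = 0.0341) and fell from 2 h to 12 h by 1.09 (SE 0.15, adjusted p = 9.62e-05). REF1, which oxidises coniferaldehyde and sinapaldehyde to the acids, rose from 2 h to 12 h by 0.44 (SE 0.11, adjusted p = 0.011) and fell from 12 h to 24 h by 0.45 (SE 0.11, adjusted p = 0.0217). HCT, a hydroxycinnamoyl transferase of the lignin branch, fell from 2 h to 12 h by 0.31 (SE 0.08, adjusted p = 0.00766). CCR2 rose again from 12 h to 24 h by 0.61 (SE 0.15, adjusted p = 0.0229).

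Of 15 listed flavonoid genes 1 was tested, CHIL, a chalcone isomerase-like protein that aids chalcone formation. Its mean went from 363 in untreated roots to 795 at 12 h (log2 1.16, SE 0.28, adjusted p = 0.0131). From 2 h to 12 h it rose by 1.70 (SE 0.23, adjusted p = 6.68e-05), and from 12 h to 24 h it fell by 0.91 (SE 0.23, adjusted p = 0.0238). From 2 h to 24 h it was higher by 0.79 (SE 0.23, adjusted p = 0.0345). Of 26 listed genes of nucleotide sugar supply 1 was tested, the UDP-sugar pyrophosphorylase USP, and it was called in no comparison. None of these 5 genes was called between media.

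Green tissue markers were present in the root samples. Of 6 listed names, among which LHCB1.3 and CAB1 stand for the same locus, LHCB4.1 and RCA had a probe set of their own. Their summed signal was 259 to 289 at 2 h and 271 to 354 at 24 h. These sums lay between the values given above for untreated roots and for 12 h. The root hair markers EXPA7 and EXPA18, 2 of 4 listed, summed to 224 to 317 in untreated roots and 189 to 278 at 12 h. AUR1, 1 of 3 listed markers of dividing cells, read 114 to 129.8 in untreated roots and 136 to 200 at 24 h. PYK10 read 3466 to 3486 in untreated roots and 2041 to 4072 on the transferred arrays. At 2 h it was 2354 to 2716 without sulfate and 3214 to 3589 on replete medium. The direction was the opposite at 4 h, with 3585 to 4072 without sulfate and 3166 to 3201 on replete medium. At 8 and 24 h the media overlapped. The part of these tissues in the results was not tested.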

How the data were processed

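The authors deposited probe set intensities, computed with MAS5 per the submitters' processing notes. Neither its version nor its scaling target is given in the sources used here. Each array had the same mean, 100.01, once 2% of its probe sets were trimmed from either end, and no normalization was added. Of 22810 probe sets 64 controls were left out. Signals were put on the scale log2(signal + 11), where 11 is 0.25 of the pooled median of 43.9, rounded. Probe sets whose mean reached the 40th percentile, about 27 in signal, entered the tests (13648). All 22 arrays entered 1 fit of the 11 groups with limma 3.58.1 in R 4.3.3 (lmFit, eBayes with an intensity trend), with 11 residual and 5.61 prior degrees of freedom. Adjusted p-values are Benjamini-Hochberg over all probe sets kept, with a threshold of 0.05. The procedure was tested on simulated data with independent noise on each array and no effect of the letter. That test therefore cannot show how the fit behaves where arrays are paired by letter.

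Compared were transferred minus untreated roots at 5 times, 24 h minus 2 h, and sulfate-free minus replete medium at each time and in the mean. The comparisons of 12 h with 2 h and of 24 h with 12 h were added after seeing the data. The members and lists were chosen with earlier results of these data known. Every member may be named, with full values for UGT84A1 and for members called in a comparison (up to 5 rises and 5 falls each), and called genes of the pathway lists.

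The letters A and B stand in every label. The A minus B differences of the groups correlated with r between 0.0275 and 0.644 (median 0.316) over 55 pairs of groups, and 54 pairs were over 0.1. The 2 groups of the pair below it, sulfate-free 8 h and replete 24 h, are set against each other only within the mean difference between media. A pairing by letter is therefore read from the data and not from a stated batch. The main fit does not use this pairing, which enters only through the letter factor and the time-letter block among the alternatives. Alternatives were pseudocounts of 1 and 50, no filter, quantile normalization, the letter as a factor, a block for arrays sharing time and letter (correlation 0.400), and leaving out each array.

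Gene names came from the platform annotation, updated through the RefSeq gene table of TAIR10.1, which matched all 47 members. Coordinates are left out because the values name no genome build. Promoter and protein sequences, and hybridisation between near-identical members, were not analysed here.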

Additional observations from a re-analysis of the deposited data

How the results depend on the processing

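Of 75 values of named members followed, none of the 55 called ones changed sign in any of the 28 alternative settings. The 20 not called were all of UGT84A1 or AT2G22590, the only members whose uncalled values were followed. Of these 20, 8 changed sign in at least 1 setting, and none of the 8 was called in the setting where its sign changed. With a pseudocount of 50, which by construction shrinks the differences of dim probe sets, 26 of the 55 were smaller by over 1.5 times, and without the untreated array A 10 were. The count of members called against untreated roots moved by over 1.5 times with the letter as a factor (replicate block) at 8 h, to 11, and at 24 h, to 3, and with a pseudocount of 1 at 24 h, to 1. Between media the letter factor gave 1 call at 12 h and 1 in the mean difference, and blocking arrays that share time and letter gave 2 in the mean difference. Pairing by letter changed no other count by that much. Leaving out 1 array gave 4 to 9 calls at 2 h, 1 to 8 at 4 h, 1 to 7 at 8 h, 3 to 9 at 12 h and 0 to 1 at 24 h against untreated roots. It gave 5 to 10 calls from 2 h to 24 h, 8 to 13 from 2 h to 12 h and 3 to 4 from 12 h to 24 h. Between media it gave 0 at each time and in the F-test, and 0 to 1 in the mean difference. The call at 24 h appeared without array A or B of replete 4 h, array A or B of sulfate-free 8 h, or array B of sulfate-free 24 h. Of the values of named members under settings that keep all arrays, 411 kept their side of the threshold, 34 lost it and 5 passed it newly. With 1 array left out, 1486 kept it, 158 lost it and 6 passed it newly. In every one of the 28 settings UGT71C3, UGT72E2, UGT73B4 and UGT84A4 were called at 2 h, UGT84A4 at 8 h, and AT2G22590, UGT84A1 and UGT84A4 at 12 h against untreated roots. The same holds for UGT72E2, UGT73B1, UGT73B4 and UGT73B5 from 2 h to 24 h. The comparisons with untreated roots rest on 2 arrays, and 22 members were too dim to test.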
